A study of Mus musculus with 4 samples.

Results

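Sphingosine-1-phosphate (S1P) metabolism and receptor genes were examined in RNA of sorted mouse pancreatic β-cells, as 8 genes picked by symbol from the 23420 genes of the deposited count table. They are the S1P lyase gene Sgpl1, the sphingosine kinase genes Sphk1 and Sphk2, the S1P phosphatase genes Sgpp1 and Sgpp2, and the receptor genes S1pr1, S1pr2 and S1pr3. All 8 were in the table and all 8 passed the filter on low counts. The set was put together with the difference between the groups already known, so the members' differences are given below as a description, without p-values.

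The study compared 2 libraries labelled Bmal1KO with 2 labelled Bmal1Het, whose genotype is given as Bmal1+/-. Both groups carried DTA, the diphtheria toxin A chain, and both received doxycycline for 10 days, which removed most β-cells, so that the RNA is that of residual β-cells. No library without the ablation, without doxycycline or with an intact Bmal1 gene was part of the comparison. The labels used here give neither the driver of the toxin and of the Bmal1 deletion, nor the age of the mice. The number of mice per library is not given either. Each printed p-value sets the difference between the labels only against the spread of these libraries within a label, and that spread may be technical.

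S1P is a signalling lipid made by phosphorylation of sphingosine, the backbone that ceramidases release from ceramide. Phosphatases of the endoplasmic reticulum return it to sphingosine, whereas S1P lyase cleaves it irreversibly into a fatty aldehyde and phosphoethanolamine, the only exit from the sphingolipid pool. Exported S1P acts on G-protein-coupled receptors that steer vessel integrity, cell migration and survival, and in β-cells the pathway is known for effects on insulin secretion and on survival under cytokines.

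Library totals ran from 31056116 to 38020488 counts, and levels are given as CPM (counts scaled to a common library total) after TMM scaling. RNA of the targeted gene Arntl (Bmal1) reached 75.8 and 65.6 CPM in both libraries labelled Bmal1KO, against 23.0 and 15.0 CPM in those labelled Bmal1Het. It was thus higher under the KO label (log2 fold change 1.89, SE 0.24, adjusted p = 0.0175, edgeR), and counts over a whole gene do not show whether a deleted part is missing, so the groups are named by their labels throughout. Ins1, Ins2, Iapp, Pdx1, Nkx6-1, Mafa and the other β-cell markers were present in all 4 libraries, with sums of 274202 and 235407 CPM for the KO label and 217871 and 276878 CPM for the Het label over 11 genes. These sums are set mainly by Ins2, Iapp and Ins1, and only 2 of the 11 markers were at a higher mean under the KO label. Of these 11 markers 4 fell under the KO label in edgeR's test and 0 rose, against 1.34% of all genes lower and 1.20% higher. The 4 were Ucn3 (log2 fold change -2.04, adjusted p = 0.0160), Glp1r (-1.14, adjusted p = 0.0159), G6pc2 (-0.96, adjusted p = 0.0175) and Slc30a8 (-0.92, adjusted p = 0.0230). Markers of other cells were present too and are given beside the receptors.

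Promoter sequence was compared with the motif of the clock factor BMAL1, since the mice differ in Bmal1. The first sequence below is the stretch of 250 bases before the RefSeq start of Sgpl1, the member that differed most clearly between the groups, and the other 2 are the stretches of member windows that hold the E-box CACGTG (RefSeq, GRCm38.p6). Capitals mark CACGTG or the nuclear receptor half-site AGGTCA on either strand.
Sgpl1, chr10:61147685-61147934, minus strand: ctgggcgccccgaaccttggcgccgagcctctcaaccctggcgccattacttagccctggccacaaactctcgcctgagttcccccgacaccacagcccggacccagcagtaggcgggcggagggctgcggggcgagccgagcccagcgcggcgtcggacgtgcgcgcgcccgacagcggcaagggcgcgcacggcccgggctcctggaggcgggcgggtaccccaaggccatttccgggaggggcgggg
Sgpp2, chr1:78310099-78310158, plus strand: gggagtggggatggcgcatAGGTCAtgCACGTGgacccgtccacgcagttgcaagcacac
Sphk1, chr11:116532337-116532366, plus strand: catacaccggggCACGTGtgcattttcacc

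The Sgpl1 stretch held no capital. The search covered CACGTG and the half-site AGGTCA, and also the D-box in its forms TTACGTAA and TTATGTAA, all on both strands. Its GC content was 74.8%, against a median of 52.4% over all such stretches. Windows from 250 bases before to 50 bases after a start were on file for 7 of the 8 members, in 12 windows. CACGTG lay 220 bases before the start of Sgpp2 and 95 bases before a start of Sphk1, the first of 2 overlapping windows of that gene, which also shared an AGGTCA. Over all 32851 windows CACGTG was present in 7.15% and AGGTCA in 16.3%. S1pr2 held an AGGTCA and no E-box, while Sphk2, Sgpp1 and S1pr3 held none of the 4 motifs. A match or its absence in these windows is a description of letters and shows nothing about binding.

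S1P lyase RNA was about 3-fold more abundant under the KO label, while the other abundant enzymes of the pathway lay close together in both groups. Sgpl1 (chromosome 10, 61098642 to 61147703, minus strand, GRCm38) was at 247 and 252 CPM under the KO label, from 8100 and 8078 counts, against 85.7 and 76.2 CPM under the Het label, from 3320 and 2516 counts. The KO libraries lay within a few CPM of each other and the groups were far from overlapping. The mean was 249 ± 3.98 CPM under the KO label and 80.9 ± 6.77 CPM under the Het label (SD, n = 2 each), a log2 fold change of 1.62 (SE 0.14) or 3.08-fold. With each library left out in turn the log2 fold change of Sgpl1 stayed between 1.53 and 1.71.

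In edgeR's fit across all 14649 genes tested, 1 of the 8 members, Sgpl1, passed an adjusted p of 0.05, and 2.54% of all genes did so, 1.20% as higher and 1.34% as lower under the KO label. For 6 of the 8 members no library of one label lay within the range of the other, all higher under the KO label, and 25.3% of all genes showed that pattern as higher, 23.8% as lower and 49.0% in either direction. Because the members were picked with this contrast in view, nothing is read from these counts. Without Het replicate 2, 0 members passed, and in that fit 0.110% of all genes passed as higher. S1pr3 passed beside Sgpl1 without a filter on low counts, where 2.40% of all genes were called higher, by DESeq2 (4.23%) and without KO replicate 1 (1.94%). Sgpl1 alone passed with RLE factors (1.19% of genes higher), upper-quartile factors (1.30%), library sizes only (1.53%), a minimum mean of 5 CPM, which drops the 4 scarce members (2.49%), limma-voom (1.12%), limma-trend (1.58%), a replicate block (2.14%), without KO replicate 2 (2.66%) and without Het replicate 1 (0.840%).

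**Figure D1:**
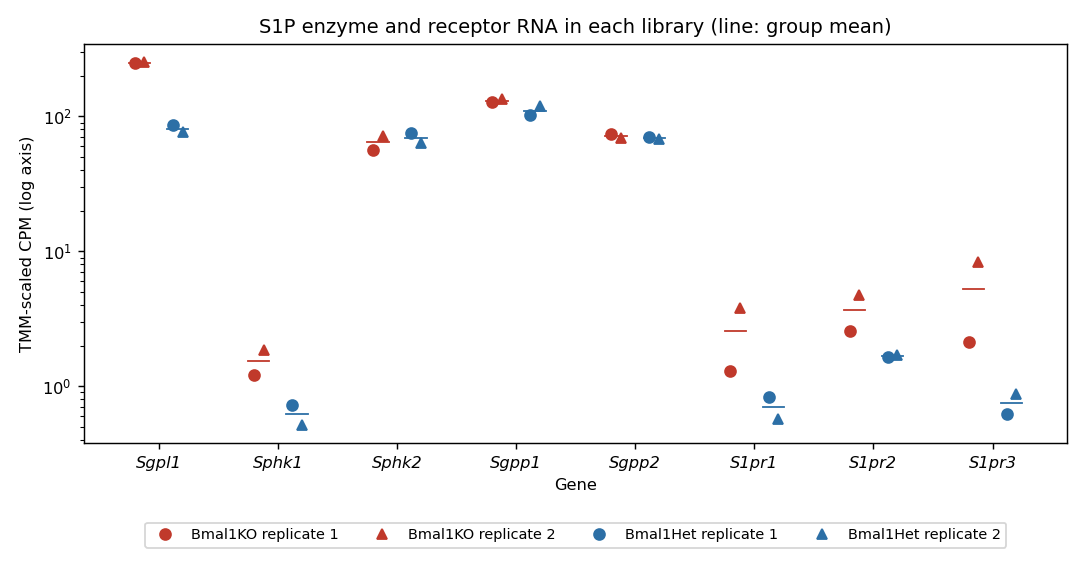
TMM-scaled CPM (log axis) of the 8 genes in each library; red symbols are the libraries labelled Bmal1KO, blue symbols those labelled Bmal1Het, circles replicate 1, triangles replicate 2 and lines the group means. Sgpl1 stands at 247 and 252 CPM against 85.7 and 76.2 CPM, and the receptors and Sphk1 lie below 10 CPM, with S1pr1, S1pr2 and S1pr3 highest in KO replicate 2.

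The kinases differed from each other far more than the groups did. Sphk2 (chromosome 7, 45709467 to 45718002, minus strand), the kinase found in the nucleus and at mitochondria, was at 56.8 and 71.5 CPM under the KO label, against 74.8 and 63.4 CPM under the Het label. The groups overlapped, with a log2 fold change of -0.11 (SE 0.18), and that value crossed 0 to 0.024 without KO replicate 1 and to 0.0096 without Het replicate 1. Sphk1 (chromosome 11, 116530925 to 116536674, plus strand), the cytosolic kinase that moves to the plasma membrane when activated, was barely detected, with 40 and 59 counts under the KO label and 28 and 17 under the Het label. These are 1.22 and 1.84 CPM against 0.723 and 0.515 CPM, so both KO libraries lay above both Het libraries. The log2 fold change was 1.30 with an SE of 0.79. The 95% exact Poisson interval of KO replicate 1, 0.870 to 1.66 CPM, overlapped that of Het replicate 1, 0.480 to 1.04 CPM, counting error only.

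Sphk2 is also the member whose counts are least its own. Its exons overlap those of the clock output gene Dbp by 539 bases and those of the ribosomal protein gene Rpl18 by 373 bases, both on the opposite strand, which is 13.0% and 8.97% of its exon length. The kit does not mark strand, and 18.3% of the 50-base words of Sphk2 transcripts also occur on the other strand as Dbp or Rpl18, so reads there cannot be assigned to one gene. Dbp, which BMAL1 drives in many tissues, was at 11.2 and 7.53 CPM under the KO label, against 13.6 and 10.4 CPM under the Het label. Rpl18 was at 9.71 and 9.21 CPM under the KO label, against 7.28 and 10.2 CPM under the Het label. Neither neighbour passed the test (log2 fold change -0.35, adjusted p = 0.656 for Dbp and 0.12, adjusted p = 0.906 for Rpl18, edgeR).

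The phosphatase genes differed little between the groups, by 1.19-fold for Sgpp1 and 1.05-fold for Sgpp2. Sgpp1 (chromosome 12, 75714249 to 75735729, minus strand) was at 128 and 134 CPM under the KO label, against 102 and 118 CPM under the Het label. The groups did not overlap, but the difference was small, with a log2 fold change of 0.25 (SE 0.15). Sgpp2 (chromosome 1, 78310345 to 78420289, plus strand), a second phosphatase for S1P, was at 74.6 and 69.7 CPM under the KO label, against 69.8 and 67.4 CPM under the Het label. Its groups overlapped, with a log2 fold change of 0.072 (SE 0.15). The 3′ part of its gene model overlaps 248 exon bases of Farsb on the other strand, 6.20% of its exon length.

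Divided by exon length, the order of the abundant enzymes differed between the labels. Exon length here counts every base in any annotated transcript of a gene, whichever transcript is expressed. Under the KO label Sgpl1 came first at 40.1 and 41.1 CPM per kilobase of exon, followed by Sgpp1 at 22.7 and 23.7, Sgpp2 at 18.6 and 17.4 and Sphk2 at 13.6 and 17.2. Under the Het label Sgpl1 came last of these 4 genes at 14.0 and 12.4 CPM per kilobase, after Sgpp1 at 18.0 and 21.0, Sgpp2 at 17.4 and 16.9 and Sphk2 at 18.0 and 15.3. Under the Het label, Sgpp2 and Sphk2 overlapped, the lowest Sgpp1 and the highest Sphk2 value were level at 18.0, and Sgpl1 lay below all 3. Under the KO label no neighbouring pair of these 4 genes overlapped, the closest being Sgpp2 and Sphk2. The place of Sgpl1 under the Het label depends on the division by length. In plain CPM it was at 85.7 and 76.2 there, above Sgpp2 (69.8 and 67.4) and Sphk2 (74.8 and 63.4) and below Sgpp1 (102 and 118).

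Within each library, the lyase level per kilobase was 2.89 and 2.34 times the summed kinase level under the KO label, against 0.770 and 0.807 times under the Het label. Set against the summed phosphatases it was 0.970 and 1.0 times under the KO label and 0.394 and 0.328 times under the Het label. Sgpl1 thus made up 41.5% and 39.7% of the per-length RNA of all 8 genes under the KO label, against 20.5% and 18.7% under the Het label. Sphk2 supplied 97.8% to 99.3% of the summed kinase level in every library. Among 13709 tested genes with a single gene model, Sgpl1 stood at the 93.5 and 94.1 percentile of per-length level under the KO label and at the 78.2 and 75.5 percentile under the Het label.

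**Figure D2:**
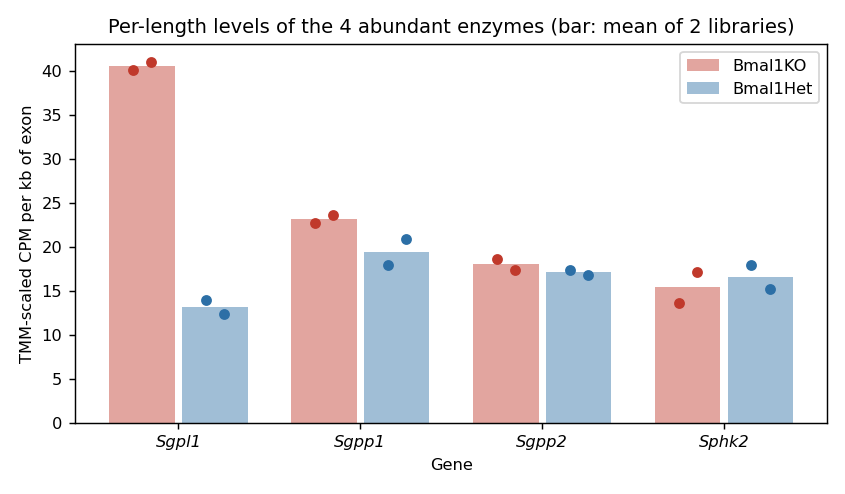
TMM-scaled CPM per kilobase of exon for the 4 abundant enzymes; bars are means of 2 libraries, points are libraries, red is the KO label and blue the Het label. Sgpl1 is the highest of the 4 under the KO label (40.1 and 41.1) and the lowest under the Het label (14.0 and 12.4), while the other 3 genes lie between 13.6 and 23.7 in all libraries.

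All 3 receptor genes were scarce, and their highest value was in KO replicate 2. S1pr3 (chromosome 13, 51408639 to 51422797, plus strand), a receptor that couples to several G-protein classes, was at 2.13 and 8.37 CPM under the KO label, from 70 and 268 counts, against 0.620 and 0.878 CPM under the Het label, from 24 and 29 counts. The groups did not overlap, but the KO libraries were far apart, with means of 5.25 ± 4.41 and 0.749 ± 0.182 CPM (SD, n = 2 each). The log2 fold change of 2.81 (SE 0.76) was the largest of the 8 members and became 1.50 (SE 0.83) without KO replicate 2 and 3.45 (SE 0.54) without KO replicate 1.

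S1pr1 (chromosome 3, 115710433 to 115715072, minus strand), the main receptor of endothelium and lymphocytes, was at 1.31 and 3.81 CPM under the KO label, against 0.826 and 0.575 CPM under the Het label. Its groups did not overlap, though the exact Poisson intervals of KO replicate 1 (0.947 to 1.76 CPM) and Het replicate 1 (0.565 to 1.17 CPM) did. The log2 fold change was 1.86 (SE 0.79), or 0.89 (SE 0.97) without KO replicate 2. S1pr2 (chromosome 9, 20962361 to 20976781, minus strand), a receptor known for restraining cell migration, was at 2.56 and 4.75 CPM under the KO label, against 1.65 and 1.70 CPM under the Het label. Its groups did not overlap either, and its log2 fold change of 1.12 (SE 0.56) became 0.61 (SE 0.62) without KO replicate 2. Per kilobase, no receptor exceeded 1.88 CPM in any library, against a median of 4.16 to 4.31 over tested genes, and under the Het label the 3 receptors lay between 0.139 and 0.271. Each receptor is encoded by a single coding exon, and 0 of the 50-base words of S1pr1 and S1pr3 and 0.911% of those of S1pr2 occur in other genes' transcripts.

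Stromal and immune marker sums, like the receptors, were highest in KO replicate 2, and the endothelial sum in KO replicate 1. In edgeR's test 3 of 10 tested stromal and mural markers rose under the KO label, against 1.20% of all genes. Of 11 tested immune and 6 tested endothelial markers, 0 rose and 0 fell. A log2 fold change above 0 was found for 7670 of all 14649 genes. Stromal and mural markers summed to 137 and 364 CPM under the KO label, against 62.0 and 19.3 CPM under the Het label, with 10 of 12 at a higher mean under the KO label. The stromal receptor gene Pdgfra was at 1.13 and 5.31 CPM under the KO label and at 0 counts in both Het libraries. Immune markers summed to 426 and 1233 CPM under the KO label, against 415 and 493 CPM under the Het label, with 12 of 12 at a higher mean. The immune sum of KO replicate 1 thus lay between those of the Het libraries. Its largest part was Cd74, at 156 and 457 CPM under the KO label, against 193 and 248 CPM under the Het label. The single markers differed: in KO replicate 1, Cd68, Lyz2, C1qb, Tyrobp, Cd3e and Cd79a lay above both Het libraries. Ptprc, Emr1, Cd74 and Itgam lay below both, and Csf1r and C1qa lay between them. Endothelial markers summed to 48.6 and 25.7 CPM under the KO label, against 17.8 and 14.0 CPM under the Het label, with 11 of 12 at a higher mean. The largest part of the endothelial sum was Esam, at 20.7 and 12.8 CPM under the KO label, against 12.9 and 8.23 CPM under the Het label. The order of the KO libraries in that sum is opposite to that of S1pr1, but Eng (1.95 and 4.68 CPM), Kdr and Tek were higher in KO replicate 2. The remaining endothelial markers were higher in KO replicate 1. Cdh5, Kdr, Flt1, Tie1, Tek, Emcn and Cldn5 were at 0 in at least 1 library. The part of these cells in the receptor values was not tested, and in bulk RNA more cells of a type and more RNA per cell cannot be told apart. For Sgpl1 the KO libraries were alike (247 and 252 CPM) while the stromal and immune sums were far apart between them, and their part in its level was likewise not tested.

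**Figure D3:**
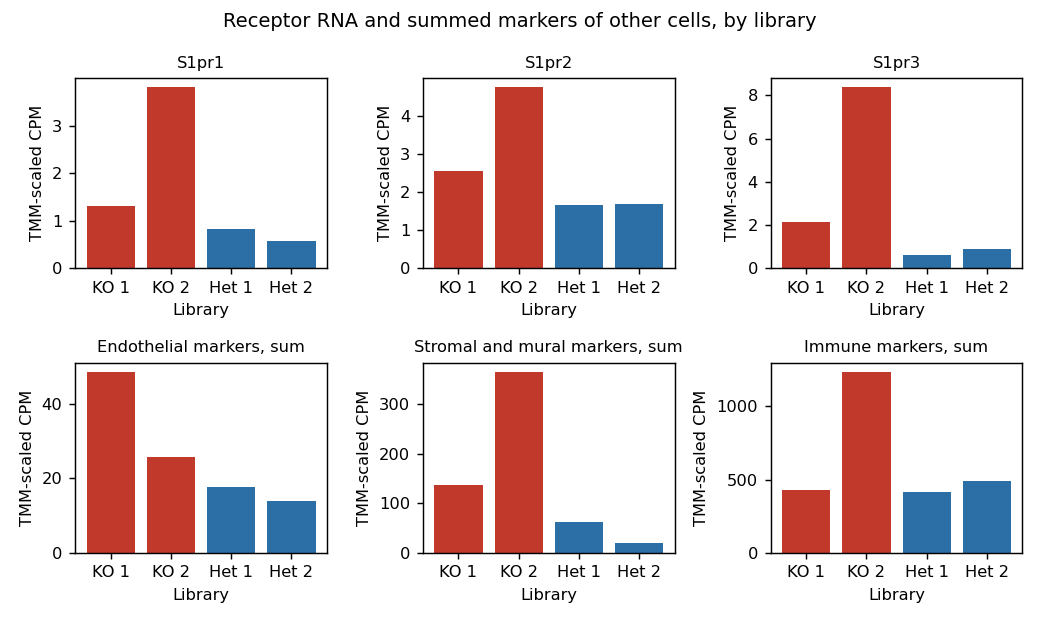
TMM-scaled CPM of S1pr1, S1pr2 and S1pr3 (top) and of summed markers of endothelial, stromal and mural, and immune cells (bottom) in each library; red bars are the KO label, blue bars the Het label, and axes start at 0. The receptors and the stromal and immune sums are highest in KO replicate 2, the endothelial sum in KO replicate 1.

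Acinar markers summed to 191 and 71.8 CPM under the KO label, against 61.1 and 18.2 CPM under the Het label, with 9 of 10 at a higher mean under the KO label. Markers of other islet cells summed to 4202 and 8781 CPM under the KO label, against 3645 and 3402 CPM under the Het label, with 6 of 8 at a higher mean, and like the receptors they were highest in KO replicate 2. Of these, 7 were tested and 1, Irx2, rose under the KO label, against 1.20% of all genes. Irx2 was at 21.9 and 12.7 CPM under the KO label, against 2.30 and 3.27 CPM under the Het label (log2 fold change 2.64, adjusted p = 0.0230, edgeR), and was highest in KO replicate 1. Duct markers summed to 763 and 703 CPM under the KO label, against 916 and 1014 CPM under the Het label. That sum is set mainly by Krt7, at 368 and 397 CPM under the KO label, against 567 and 663 CPM under the Het label, while 5 of the 8 duct markers were at a higher mean under the KO label. Glial markers summed to 118 and 112 CPM under the KO label, against 86.7 and 101 CPM under the Het label. The glial sum is set mainly by Ncam1, at 101 and 83.9 CPM under the KO label, against 74.1 and 89.8 CPM under the Het label. Erythroid markers are of interest because red cells store S1P, and 5 of the 7 listed were among the genes counted. They summed to at most 0.406 CPM, and Hba-a1, Hba-a2 and Hbb-b1 were at 0 in all libraries. How reads were counted is not given, so these zeros do not show that red-cell RNA was absent.

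**Figure D4:**
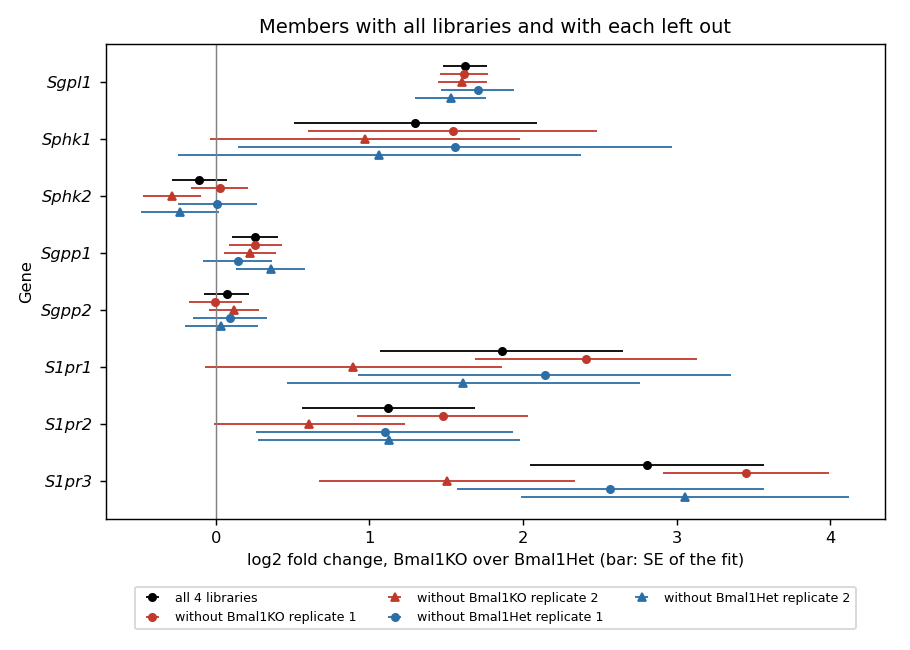
log2 fold change of the libraries labelled Bmal1KO over those labelled Bmal1Het for each gene (points; bars are the SE of edgeR's fit), with all 4 libraries in black and with 1 library left out in colour. Sgpl1 stays between 1.53 and 1.71, while S1pr3 runs from 1.50 without KO replicate 2 to 3.45 without KO replicate 1.

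Of the genes beside Sgpl1 on chromosome 10, Pcbd1 overlapped between the groups and Tbata was too scarce to test. Pcbd1, which lies 4317 bases away on the opposite strand and encodes a pterin dehydratase, was at 110.4 and 76.3 CPM under the KO label, against 76.2 and 109 CPM under the Het label. Its groups overlapped (log2 fold change 0.015, SE 0.24, adjusted p = 0.984 in edgeR's test). Tbata, on the other side, had 12 and 1 counts under the KO label and 0 and 1 under the Het label and was not tested. Of the 16 neighbours of the 8 members, 12 were tested and 0 passed in edgeR's test. Only 1, Prpsap1 beside Sphk1, had an unadjusted p below 0.05 in that test (0.039, log2 fold change -0.37). Over all 14649 genes, 2471 had an unadjusted p below 0.05. Dnmt1 and Mrpl4 beside S1pr2, Syne2 and Wdr89 beside Sgpp1 and Ube2o beside Sphk1 had log2 fold changes between -0.15 and 0.16. Outside that range lay also Farsb beside Sgpp2 (-0.20), Dph5 beside S1pr1 (0.52) and Nxnl2 beside S1pr3 (0.58). Only 0.446% of the 50-base words of Sgpl1 transcripts occur in transcripts of other genes.

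The profile over the 4 libraries nearest to that of Sgpl1, by Euclidean distance between centred log2 CPM, was sought among 8860 other named genes at a mean of 10 CPM or more. The 5 nearest were Rin2 (distance 0.16), Cpm (0.19), Relt (0.23), Gpr85 (0.25) and Mxra8 (0.26). Relt, a receptor gene of the TNF receptor family, was at 77.1 and 78.8 CPM under the KO label, against 30.2 and 28.7 CPM under the Het label. Rin2, which encodes a regulator of RAB5, was at 39.9 and 35.5 CPM under the KO label, against 13.7 and 11.3 CPM under the Het label. All 5 were picked for this likeness, which makes their differences a description as well. Among the members, Sphk1 was nearest (distance 0.61) and Sphk2 farthest (1.75). The profile of Sphk1 rests on 17 to 59 counts a library, below the mean of 10 CPM asked of the genes above.

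Beyond the 8 members, 101 genes of sphingolipid metabolism and S1P signalling were listed by role, and 89 of them were tested. Of these, 4 rose under the KO label (Abca1, Asah1, Gnai1 and Adrbk1), 0 fell and 85 did not pass. That is 4.49% higher, against 1.20% of all genes, and the median log2 fold change was -0.045, against 0.024 over all genes. The lists, like the members, were drawn up with earlier results of these data known. Nothing is therefore read from these shares, and the p-values of the listed genes below serve as a description. Without Het replicate 1 or without Het replicate 2 none of the 4 passed, with 0.840% and 0.110% of all genes called higher in those fits.

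Of 18 genes of ceramidases and sphingomyelin turnover, 15 were tested, 1 rose and 14 did not pass, with a median log2 fold change of -0.14. Asah1, the lysosomal acid ceramidase that releases sphingosine, the substrate of the kinases, was at 327 and 315 CPM under the KO label, against 197 and 182 CPM under the Het label. The groups were well separated (log2 fold change 0.76, SE 0.14, edgeR adjusted p = 0.0389). Smpd1, the acid sphingomyelinase, was at 90.1 and 88.0 CPM under the KO label, against 107 and 133 CPM under the Het label, and did not pass (-0.43, adjusted p = 0.233, edgeR). Smpd5, a low-abundance sphingomyelinase gene, was at 1.43 and 1.78 CPM under the KO label, against 0.232 and 0.242 CPM, from 9 and 8 counts, under the Het label, and did not pass either (2.74, SE 0.85, adjusted p = 0.167, edgeR; 1.51 by limma-trend on the deposited values with a pseudocount of 0.5).

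Of 14 genes of other S1P receptors, transporters, carriers and phosphatases, 11 were tested, 1 rose and 10 did not pass (median log2 fold change -0.083). Abca1, best known as a cholesterol and phospholipid exporter and also linked to S1P export, was at 143 and 96.5 CPM under the KO label, against 49.4 and 48.0 CPM under the Het label. Both KO libraries were clearly above both Het libraries (log2 fold change 1.30, SE 0.21, edgeR adjusted p = 0.0277). Abca7 (-0.33, adjusted p = 0.318, edgeR) and Ppap2b, a surface lipid phosphatase that can act on S1P (0.91, adjusted p = 0.445, edgeR), did not pass. The exporter gene Spns2 was at 3.59 and 2.69 CPM under the KO label, against 1.96 and 3.51 CPM under the Het label. The receptor genes S1pr4 and S1pr5 and the carrier gene Apom had at most 11 counts in any library and were not tested.

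Of 22 genes of receptor G proteins and effectors, all were tested, 2 rose and 20 did not pass (median log2 fold change 0.054). Gnai1, an inhibitory G-protein subunit gene, was at 45.1 and 35.0 CPM under the KO label, against 14.5 and 19.0 CPM under the Het label (1.26, SE 0.23, edgeR adjusted p = 0.0432). Adrbk1, which encodes the receptor kinase GRK2, was at 173 and 80.4 CPM under the KO label, against 35.6 and 39.7 CPM under the Het label (1.75, SE 0.33, edgeR adjusted p = 0.0481). KO replicate 1 was more than 2-fold above KO replicate 2 for this gene. The log2 fold change of Adrbk1 was 1.07 without KO replicate 1, and by limma-voom its adjusted p was 0.0544. Gnai1 did not pass without KO replicate 1 (1.04, adjusted p = 0.0695, edgeR). Gnai2 and Gnai3, the more abundant subunits of the same class, had log2 fold changes of -0.055 and -0.24, and Plcb1, a phospholipase C gene, had -0.81 (adjusted p = 0.133, edgeR); none of these passed.

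Of 17 genes of de novo ceramide synthesis, 13 were tested and 0 passed in edgeR's test. An unadjusted p below 0.05 was reached by 2 of them, against 2471 of all 14649 genes. Kdsr, the reductase of the second step, was at 22.4 and 17.2 CPM under the KO label, against 10.6 and 8.51 CPM under the Het label (1.05, SE 0.27, adjusted p = 0.107, edgeR). It passed by DESeq2 alone (adjusted p = 0.0178). The ceramide synthase gene Cers4 (0.76, adjusted p = 0.167, edgeR) and Ormdl2, of the family that restrains serine palmitoyltransferase (-0.62, adjusted p = 0.372, edgeR), followed. The serine palmitoyltransferase genes Sptlc1 and Sptlc2 were at 0.054 and 0.12 on the log2 scale.

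Of 11 genes on the fate of lyase products, 10 were tested and 0 passed in edgeR's test, and their median log2 fold change was -0.12. An unadjusted p below 0.05 was reached by 1 of them, against 2471 of all 14649 genes. Aldh3a2, which oxidises the fatty aldehyde that S1P lyase releases, was at 102 and 97.8 CPM under the KO label, against 121 and 109 CPM under the Het label. Pcyt2, which carries phosphoethanolamine on into phospholipid synthesis, was at 185 and 203 CPM under the KO label, against 247 and 214 CPM under the Het label (-0.25, adjusted p = 0.463, edgeR). For both genes the KO libraries lay below the Het libraries, and neither passed (adjusted p = 0.553 for Aldh3a2, edgeR). The acyl-CoA synthetase genes Acsl4 (-0.70, adjusted p = 0.177) and Acsl3 (-0.44, adjusted p = 0.473, both edgeR) did not pass.

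Of 19 genes of glycosphingolipid turnover, 18 were tested and 0 passed in edgeR's test, and the median log2 fold change was -0.17. An unadjusted p below 0.05 was reached by 4 of them, against 2471 of all 14649 genes. Arsa, the lysosomal enzyme that removes sulphate from sulphatide, was at 125 and 104 CPM under the KO label, against 82.1 and 67.5 CPM under the Het label (0.62, adjusted p = 0.132, edgeR). Arsa passed by DESeq2 alone (adjusted p = 0.0281). Gltp, a glycolipid transfer protein gene, and Glb1, the lysosomal β-galactosidase gene, had log2 fold changes of -0.49 (adjusted p = 0.166, edgeR) and -0.48 (adjusted p = 0.170, edgeR). Over the 6 lists, 46 of the 89 tested genes had groups that did not overlap, 22 higher and 24 lower under the KO label, which is 51.7%, against 49.0% of all genes.

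**Figure D5:**
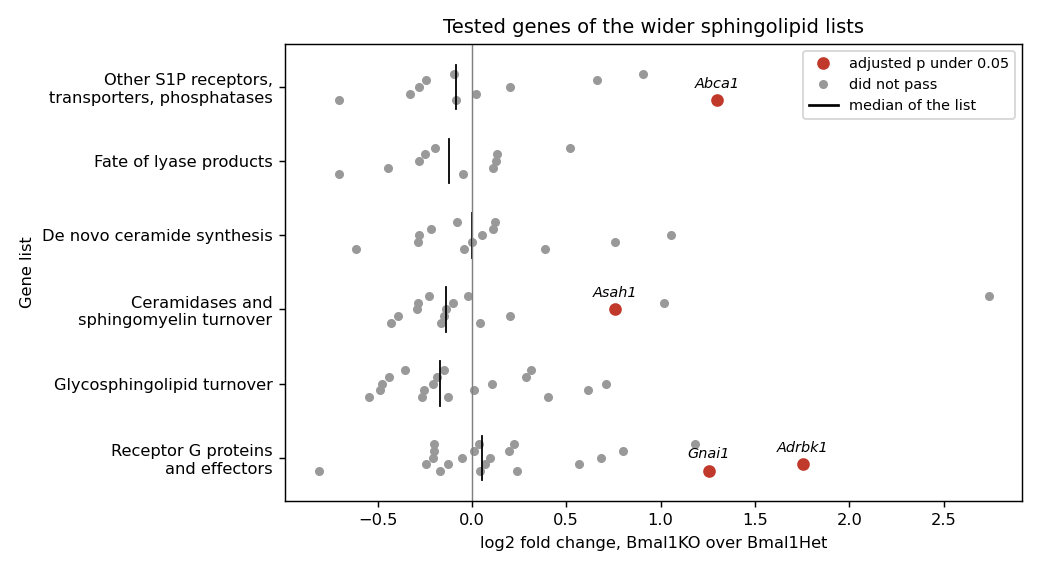
log2 fold change of the libraries labelled Bmal1KO over those labelled Bmal1Het for the 89 tested genes of the 6 lists; red points passed an adjusted p of 0.05 in edgeR's test, grey points did not, and black lines are list medians, which lie between -0.17 and 0.054. The 4 red points are Abca1, Asah1, Gnai1 and Adrbk1, all to the right of 0.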

How the data were processed

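RNA of 4 sorted β-cell samples was sequenced from SMART-Seq v4 low-input libraries, per the labels' protocols. STAR, edgeR and the build mm10 appear in the submitters' processing notes, with no version. It was not given in the sources used here which tool counted reads, with which strand setting and annotation. Deposited by the authors were whole-number read counts per gene symbol, used for all main fits, and a scaled table, treated as a signal, in which each value is a count times 1 constant per library. Whole reads came out for 100% of its values (tolerance 0.01), and edgeR on them called 176 genes higher and 196 lower, the numbers found with the counts.

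Counts were filtered with filterByExpr (minimum 10, total 15), scaled by TMM and fitted with edgeR 4.0.16 (R 4.3.3), group as the only term, 2-sided, Benjamini-Hochberg over all 14649 genes. Each gene had 2 residual degrees of freedom, and the quasi-likelihood test added 5.12 prior degrees of freedom from the spread of all genes. The p-values and SEs thus do not rest on a gene's own spread alone. SEs are the log2 fold change over the root of the F statistic. An exact permutation test of 2 against 2 libraries cannot go below p = 0.333 and was not used. Libraries of 1 label were distinct (chi-square per degree of freedom 58.1 and 38.4 for the KO and Het labels). Intervals cover counting error only, since reads carry no molecular identifiers. Exon lengths, positions and neighbours come from GENCODE release M21 (GRCm38, the build called mm10), where 93.6% of tested symbols had a single model; promoter windows (250 bases before to 50 after a start) come from RefSeq.

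The members and lists were chosen with earlier results of these data known. Named were all 8 members, Arntl, the genes of each wider list past the threshold or, where fewer than 3 passed, its 3 with the smallest p, the nearest coding gene on each side of a member and the 5 genes most like Sgpl1; Spns2, Aldh3a2, Gnai2, Gnai3, Sptlc1, Sptlc2 and the single marker genes given with values were added after their values were seen. Alternatives were RLE, upper-quartile and library-size scaling, DESeq2 1.42.0, limma-voom and limma-trend (limma 3.58.1, pseudocount 0.5), filtering off or at a mean of 5 CPM, a replicate block and leaving out each library; recovered reads were added after seeing the data.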

Additional observations from a re-analysis of the deposited data

How the results depend on the processing

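The log2 fold change of Sgpl1 kept its sign in all 14 alternatives, and leaving out 1 library gave 1.53 to 1.71. The alternatives refit the same libraries, and the set holding Sgpl1 was put together with the difference already known. They therefore describe how the value depends on the processing and add no separate support for it. With each library left out, 0 to 2 members were higher, 17 to 404 of all genes higher and 8 to 422 lower, and 0 to 6 wider genes higher. Without a filter 2 members (Sgpl1 and S1pr3), 430 genes as higher and 378 as lower passed. DESeq2 called 2 members, the same pair, 619 genes higher, 560 lower and 1 wider gene lower, Plcb1. It called 6 wider genes higher, Arsa and Kdsr beside the 4 of the main fit. A minimum mean of 5 CPM gave 266 genes higher. S1pr3 also passed without KO replicate 1. Of 108 member values under alternatives, 3 changed sign, those of Sphk2 and Sgpp2 (-0.0036 without KO replicate 1), and 0 of 250 values of named wider genes did. No cause of these changes was tested. The correlation across genes of the differences between replicates 1 and 2 was -0.019 between the labels. This value shows no large effect shared by replicate number, but it cannot decide whether the libraries were paired. A fit with the replicate block called 313 genes higher, 278 lower, 1 member (Sgpl1) and the same 4 wider genes. The values of S1pr1 and Sphk1 rest on at most 122 counts a library, and each group on 2 libraries.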
